A study of Mus musculus with 23 samples.

Results

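The livers of 12 male mice that received only the vehicle were compared across time, 6 taken at 21 d and 6 at 90 d. They were chosen by their labels and are 12 of the 23 arrays of the study, each array holding RNA from 1 animal. All animals were hemizygous FVB/N-SULT1A1/2 mice, which carry the human sulfotransferase genes SULT1A1 and SULT1A2 as a transgene. The study asked what 1-methoxy-3-indolylmethyl alcohol (1-MIM-OH), a compound formed from a glucosinolate of cruciferous plants, does to liver gene expression at 26 mg/kg, given by mouth. The vehicle was glyceryl trioctanoate, given 3 times a week in the same way, for a total of 10 treatments in the 21 d group and 40 treatments in the 90 d group. Livers were collected 24 h after the last treatment. The other 11 arrays, 5 at 21 d and 6 at 90 d, came from animals given 1-MIM-OH in this vehicle. The labels give every animal an age of 5 weeks without saying whether this was at the start. Age, the number of vehicle doses and any difference in handling between the collections therefore cannot be told apart in the comparison of 90 d with 21 d. No group without the vehicle was analysed here.

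Glyceryl trioctanoate is a fat built from octanoic acid, a medium-chain fatty acid that reaches the liver by the portal vein and is oxidised in mitochondria without the main carnitine-dependent control step. Young adult liver is a tissue in which growth hormone pulses, feeding, the circadian clock and circulating cytokines each set the level of sizeable gene groups, so that animals of one group can differ in the same genes that a treatment can move. A comparison of vehicle livers over time shows how much of the difference between collections is present without the test compound.

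The values are log2 expression as deposited, and a difference of 1 is a 2-fold difference. Medians of the vehicle arrays lay between 5.53 and 5.57. Correlations between vehicle arrays over all probe sets were between 0.99 and 0.997 within a group and between 0.989 and 0.997 across the groups. Alb, which encodes serum albumin and marks hepatocytes, was between 15.22 and 15.29 in all 12 animals. The signal of the 3' control probe set of Gapdh exceeded that of its 5' one, a gap that grows when RNA or labelled fragments are short, by 0.33 ± 0.13 (SD, n = 6) at 21 d and 0.50 ± 0.15 (SD, n = 6) at 90 d (difference 0.17, 2-sided exact permutation p = 0.0758). The same gap for beta-actin was 1.76 ± 0.10 (SD, n = 6) and 1.94 ± 0.16 (SD, n = 6) (difference 0.18, 2-sided exact permutation p = 0.039). Both gaps were larger on average at 90 d, and the effect of adding the Gapdh gap to the fit is given with the counts of passing probe sets. Among the treated arrays at 21 d, all but 1 had a Gapdh gap over 0.9, which limits every difference given below for treated livers.

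Few genes passed the test for a difference between 90 d and 21 d in vehicle livers. At an adjusted p under 0.05 in limma, 20 of 45037 probe sets passed (0.0444%), 11 of them higher (0.0244%) and 9 lower (0.02%) at 90 d. With each gene represented by its brightest probe set, 9 of 18193 genes passed (0.0495%): 4 rose (0.022%), namely Osbpl3, Gna14, Nat8 and Olfm3, and 5 fell (0.0275%), namely Cyp39a1, Tceal8, Cdkn2c, Tcf24 and Golm2. At an unadjusted p under 0.05, 1868 genes (10.3%) were past the threshold, 858 higher (4.72%) and 1010 lower (5.55%), as were 4210 probe sets (9.35%). The median absolute difference over all genes was 0.06 on the log2 scale. In 147 genes (0.808%) the 6 values at 90 d and the 6 values at 21 d did not overlap.

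The count of passing probe sets depended on single animals. It was 11 without animal 2 of the 21 d group, 11 without animal 1 of the 90 d group, 13 without animal 3 and 9 without animal 5 of the 90 d group, and 43 without animal 2 of the 90 d group. All 20 probe sets kept their direction in each of these fits, which was fixed in advance because their 2 groups did not overlap. Adding the Gapdh gap to the fit left 8 passing, all of them among the 20.

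Cyp39a1, which encodes an oxysterol 7-alpha-hydroxylase of bile acid synthesis, had the largest fall among the genes that passed. Its log2 level ran from 7.92 to 8.26 at 21 d with a median of 8.18, and from 6.60 to 7.5 at 90 d with a median of 6.90. Every 90 d animal was below every 21 d animal. The difference was -1.14 ± 0.14 (SE; 2.21-fold lower, limma adjusted p = 0.00844). It passed in each of the 12 fits that left out 1 animal.

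Cdkn2c encodes p18INK4c, an inhibitor of the cyclin-dependent kinases that drive cells out of G1. Its values were 8.01 to 8.48 at 21 d (median 8.26) and 7.34 to 7.68 at 90 d (median 7.5). The groups did not overlap, and the difference was -0.75 ± 0.08 (SE; 1.68-fold lower, limma adjusted p = 0.00844). Tceal8, a member of a family related to transcription elongation factor A, was 9.17 to 9.64 at 21 d (median 9.48) and 8.16 to 8.73 at 90 d (median 8.66). It fell by 0.93 on the log2 scale, with an SE of 0.11 (limma adjusted p = 0.00844), again with no overlap. Both passed with any 1 animal left out.

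Tcf24, a basic helix-loop-helix transcription factor, was 9.10 to 9.65 at 21 d (median 9.54) and 8.51 to 9.0 at 90 d (median 8.78). Its lowest 21 d animal, animal 1, lay just above its highest 90 d animal. The fall was 0.72 on the log2 scale, with an SE of 0.10 (limma adjusted p = 0.0141). Golm2, which encodes a Golgi membrane protein, was dim, at 5.67 to 6.22 at 21 d (median 5.85) and 5.17 to 5.48 at 90 d (median 5.34). Its difference was -0.53 ± 0.09 (SE; limma adjusted p = 0.0471), and the call was lost in 9 of the 12 fits that left out 1 animal. The other Golm2 probe set had a difference of -0.05 (adjusted p = 0.9).

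Osbpl3 showed the largest rise among the 4 genes that were higher at 90 d. It encodes an oxysterol-binding-protein-related lipid-binding protein. Its values were 5.15 to 6.00 at 21 d (median 5.58) and 6.20 to 7.09 at 90 d (median 6.50), without overlap. The difference was 0.99 ± 0.15 (SE; 1.98-fold higher, limma adjusted p = 0.036), and the call was lost in 8 of the 12 fits that left out 1 animal. Of its other probe sets, 1 had a difference of 0.86 (adjusted p = 0.079) and 1 of 0.07 (adjusted p = 0.816).

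Gna14 encodes a Gq-class G protein alpha subunit, which passes signals from receptors to phospholipase C. It was 6.08 to 6.85 at 21 d (median 6.41) and 6.97 to 7.52 at 90 d (median 7.40). No value of 1 group reached the other, and the difference was 0.93 ± 0.13 (SE; 1.90-fold higher, limma adjusted p = 0.0157). The other probe sets of Gna14 had differences of 0.94 (adjusted p = 0.00844) and 0.83 (adjusted p = 0.0909), so that 2 of 3 passed. The call on the brightest probe set was lost without animal 1 or without animal 5 of the 90 d group (highest adjusted p 0.0597).

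Nat8 encodes an N-acetyltransferase that acts on cysteine conjugates, the last step in forming mercapturic acids. The 21 d animals had 9.08 to 9.80 (median 9.36) and the 90 d animals 9.98 to 10.18 (median 10.09). The 90 d animals were close to each other, with an SD of 0.08 against 0.24 at 21 d, and all lay above the 21 d range. The difference was 0.68 ± 0.09 (SE; 1.60-fold higher, limma adjusted p = 0.0152), and the call was lost in 3 of the 12 fits that left out 1 animal. Olfm3, a secreted olfactomedin-domain protein, was 6.76 to 7.20 at 21 d (median 7.06) and 7.54 to 7.99 at 90 d (median 7.61). It rose by 0.63 with an SE of 0.09 (limma adjusted p = 0.0152), and a further probe set of the gene rose by 0.86 (adjusted p = 0.0141) while the remaining one differed by 0.19 (adjusted p = 0.476).

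**Figure D1:**
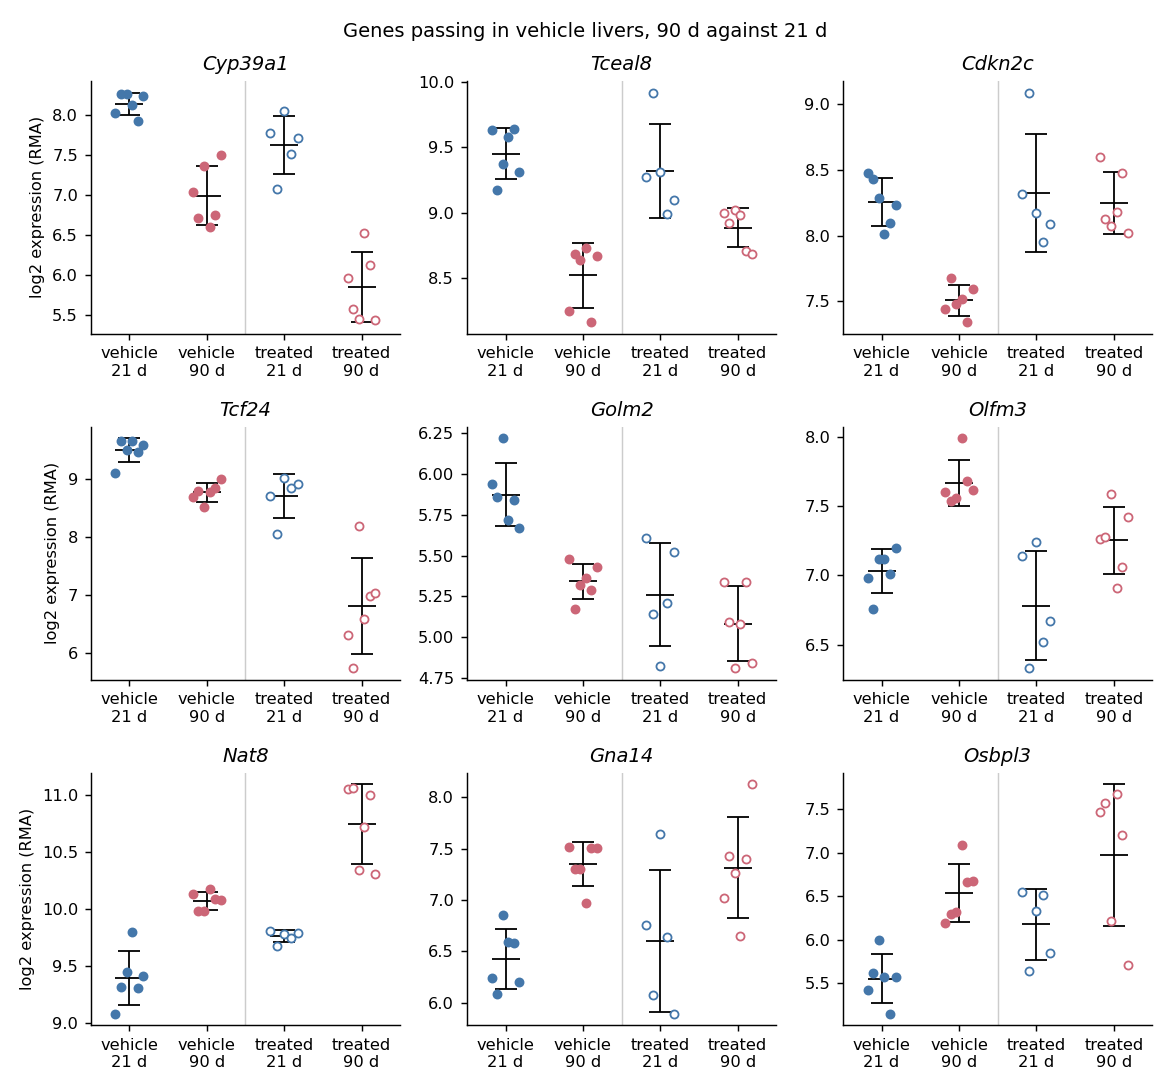
Log2 expression (RMA) of the 9 genes that passed in vehicle livers, 1 point per animal, with the mean and SD as lines; filled points are vehicle animals and open points animals given 1-MIM-OH, blue at 21 d and red at 90 d. In each panel the 6 vehicle animals at 90 d lie wholly above or wholly below the 6 at 21 d, as for Cyp39a1 with 6.60 to 7.5 against 7.92 to 8.26.

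The remaining passing probe sets were not the brightest of their gene, or have no single gene name. The largest difference of all belonged to probe set 1416666_at, which is not paired with a gene name in the annotation used here. It was 7.11 to 8.72 at 21 d (median 7.96) and 9.57 to 10.36 at 90 d (median 10.23), a difference of 2.06 ± 0.24 (SE; 4.18-fold higher, limma adjusted p = 0.00844). All 6 animals at 90 d were above all 6 at 21 d. The unnamed probe set 1442025_a_at fell by 1.38 on the log2 scale (adjusted p = 0.0194), and the unnamed sets 1456590_x_at and 1443735_at rose by 0.49 (adjusted p = 0.0241) and 0.44 (adjusted p = 0.0424). Probe set 1443735_at was near the floor, with means of 2.97 at 21 d and 3.42 at 90 d, where the lowest value in the data was 2.23.

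Among passing probe sets of named genes, 1 of the 2 for Mme, which encodes the membrane peptidase neprilysin, rose by 0.58 (adjusted p = 0.028); the brighter one had a difference of 0.92 (adjusted p = 0.0515). A probe set of Id4, an inhibitor of basic helix-loop-helix factors, rose by 0.96 (adjusted p = 0.0409), whereas its other probe sets differed by 0.65 (adjusted p = 0.172) and 0.12 (adjusted p = 0.648). H2ac19, a histone H2A gene whose near-identical copies can share probes, fell by 0.39 in 1 probe set (adjusted p = 0.0141). Its brighter probe set differed by -0.34 (adjusted p = 0.136), with overlapping groups. Otud7b, a deubiquitinase gene, fell by 0.36 in 1 of its 4 probe sets (adjusted p = 0.0471). Ntrk2, the receptor for brain-derived neurotrophic factor, lay just outside the threshold, at 8.01 to 8.55 at 21 d and 8.64 to 9.20 at 90 d (difference 0.67 ± 0.11 SE, adjusted p = 0.0515).

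Of 46 gene lists, 2 had a member that passed. In the senescence and ageing list it was Cdkn2c, 1 of 22 genes. Of the other senescence genes, Cdkn1a had a difference of -0.13 (adjusted p = 0.857) and Cdkn2a of -0.01 (adjusted p = 0.984). The promoter of Cdkn2c is shown because it is the passing member of that list. RefSeq (GRCm38.p6) gives 2 transcription starts for the gene on the minus strand of chromosome 4, and the 250 bases upstream of each are printed 5' to 3', at chr4:109665373-109665622 and chr4:109666757-109667006. The box CCAAT, which is common in promoters, was searched on both strands, and a match would stand in capitals.
Cdkn2c first window: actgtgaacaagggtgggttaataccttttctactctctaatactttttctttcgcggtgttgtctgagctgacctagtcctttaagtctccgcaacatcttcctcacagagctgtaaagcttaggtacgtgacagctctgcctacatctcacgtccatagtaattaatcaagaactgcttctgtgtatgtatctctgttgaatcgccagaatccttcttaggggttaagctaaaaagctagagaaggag
Cdkn2c second window: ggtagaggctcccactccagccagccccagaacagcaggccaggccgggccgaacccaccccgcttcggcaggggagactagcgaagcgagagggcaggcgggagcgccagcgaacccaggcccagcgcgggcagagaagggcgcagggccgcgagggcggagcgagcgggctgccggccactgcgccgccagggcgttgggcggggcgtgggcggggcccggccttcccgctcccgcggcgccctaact
The box was found 0 times in either window, and 33.9% of 32851 RefSeq windows of this length hold it. The windows differ in base composition, with 6 CG pairs and 42.8% G or C in the first and 29 CG pairs and 77.2% in the second. The array does not tell which start was used.

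In the bile acid list the passing member was Cyp39a1, 1 of 30 genes. With it, 6 members (20%) had an unadjusted p under 0.05 in the lower direction and 0 in the higher, against 5.55% and 4.72% of all genes. Cyp27a1, the sterol 27-hydroxylase that starts the alternative pathway, was 12.34 to 12.57 at 21 d and 12.21 to 12.28 at 90 d, a difference of -0.21 ± 0.06 (SE; adjusted p = 0.238) without overlap. Cyp8b1, the 12-alpha-hydroxylase of cholic acid synthesis, differed by -0.43 (adjusted p = 0.377) and Abcb11, the bile salt export pump, by -0.22 (adjusted p = 0.309). Cyp7a1, the rate-limiting enzyme of bile acid synthesis, ran from 10.27 to 12.72 at 21 d and from 9.05 to 12.43 at 90 d, a spread of over 4-fold within each group, with a difference of -0.13 ± 0.51 (SE; adjusted p = 0.963); the difference was 0.15 without animal 6 at 21 d and 0.30 without animal 6 at 90 d. The list's median was -0.03, against -0.01 over all genes.

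Genes of fatty acid and triglyceride synthesis had, after the pancreas markers, the largest share of members past an unadjusted p of 0.05 in limma: 14 of 31, or 45.2% against 10.3% of all genes. None passed after adjustment. Of the 14, 10 were higher and 4 lower at 90 d, and the list's median difference was 0.14. The 14 became 9 without animal 2 at 21 d and 8 without animal 3 at 90 d.

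Fasn, fatty acid synthase, was 10.43 to 10.99 at 21 d (median 10.64) and 10.93 to 11.48 at 90 d (median 11.16), with a slight overlap, and differed by 0.51 ± 0.10 (SE; adjusted p = 0.124). Elovl6, which elongates palmitate, was 8.97 to 9.76 and 9.62 to 10.39, a difference of 0.74 ± 0.16 (SE; adjusted p = 0.144). Srebf1, which encodes the transcription factor that turns on both, differed by 0.60 (adjusted p = 0.261). The groups overlapped in all 3. Acly, which makes cytosolic acetyl-CoA, differed by 0.33 (adjusted p = 0.342) and Thrsp by 0.66 (adjusted p = 0.523). In the lower direction stood Acacb, the mitochondrial acetyl-CoA carboxylase whose product restrains fatty acid oxidation, with -0.44 (adjusted p = 0.187), and Insig2, which retains SREBP proteins in the endoplasmic reticulum, with -0.30 (adjusted p = 0.23). Insig1, a target of SREBP proteins, differed the other way, by 0.39 (adjusted p = 0.186).

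In animals given 1-MIM-OH the difference between 90 d and 21 d was -0.48 for Fasn, -0.28 for Elovl6 and -0.08 for Srebf1, with adjusted p of 0.408, 0.657 and 0.917. The median of the list there was -0.06. All but 1 of the treated 21 d arrays had a Gapdh gap over 0.9, whose part in these differences was not tested. The 1 array without it was the lowest of its group for Fasn (10.32), Elovl6 (9.21) and Srebf1 (10.92). The treated 90 d means were 10.74, 9.71 and 11.7. That array also had the highest value of the acute phase gene Lcn2 in the study, 13.83. Without the 3 vehicle animals that had high pancreas markers, described further on, 5 members were higher and 3 lower at an unadjusted p under 0.05.

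Among 21 genes of ketone bodies and medium-chain fatty acids 0 passed, where 0.0495% of all genes did. At an unadjusted p under 0.05, 2 were lower and 0 higher (9.52%, against 10.3% of all genes), and the median was -0.03. Acadm, the medium-chain acyl-CoA dehydrogenase, was 13.37 to 13.60 at 21 d and 13.35 to 13.61 at 90 d, a difference of -0.02 ± 0.06 (SE; adjusted p = 0.955). PPAR alpha is the fatty acid receptor of the liver. Among 34 of its targets and genes of fatty acid oxidation, 0 passed and the median was -0.02. Of these 34 genes, 5 were past an unadjusted p of 0.05 (14.7%, against 10.3% of all genes), 2 higher and 3 lower. Their spread was wide for single members: Cyp4a14, a fatty acid omega-hydroxylase, ran from 8.51 to 11.68 at 21 d and from 7.74 to 11.04 at 90 d (difference -1.07 ± 0.61 SE, adjusted p = 0.63). Acot3, a peroxisomal acyl-CoA thioesterase, ran from 7.07 to 9.90 and from 7.97 to 10.31.

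Cholesterol synthesis genes had 5 of 21 members past an unadjusted p of 0.05 (23.8%, against 10.3% of all genes), with 4 higher and a median of 0.04. The count was 3 without animal 5 at 21 d, animal 4 at 90 d or animal 6 at 90 d; without the 4 animals with high acute phase genes, described further on, 8 were higher and the median was 0.23. Mvd, mevalonate decarboxylase, differed by 0.63 ± 0.16 (SE; adjusted p = 0.214) and Lss, lanosterol synthase, by 0.35 (adjusted p = 0.276). The unfolded protein response expands the folding capacity of the endoplasmic reticulum. Its genes were listed together with those of amino acid stress, 34 genes in all. Of these, 10 were past an unadjusted p of 0.05 (29.4%, against 10.3% of all genes), 8 of them higher, and 0 passed after adjustment. The number higher was 15 without the animals with high acute phase genes and 13 without those with high pancreas markers. It was 14 without animal 4 alone and 13 without animal 5 alone at 21 d. Hyou1, a chaperone, was 9.42 to 9.96 at 21 d and 9.87 to 10.31 at 90 d, a difference of 0.46 ± 0.10 (SE; adjusted p = 0.137). Hspa5, the chaperone BiP, differed by 0.31 (adjusted p = 0.396), Manf by 0.47 (adjusted p = 0.422) and Creld2 by 0.93 (adjusted p = 0.426). Creld2 ran from 9.56 to 11.92 at 21 d, and its 2 highest animals there, animals 4 and 5, lay within the 90 d range. In livers of treated animals Hyou1, Hspa5, Manf and Creld2 had differences of -0.23, -0.13, -0.15 and -0.29. There the 1 array at 21 d with a Gapdh gap not over 0.9 was the lowest of its group, at 9.82, 13.54, 11.43 and 9.42. The treated 90 d means were 9.99, 13.86, 11.93 and 10.83, and the part of the Gapdh gap was not tested.

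Genes of the glucocorticoid and fasting response stood lower at 90 d in 20 of 25 members, with a median of -0.22 and 6 members lower at an unadjusted p under 0.05 (24%, against 5.55% of all genes). That count was 10 without animal 2 at 90 d, 4 to 9 without any other animal, and 3 with the Gapdh gap in the fit. Over all genes, 10156 of 18193 had a negative difference. The lowest difference of the list, -1.67, was that of Lcn2, which also stands in the acute phase list. The mean log2 level of the list was highest in animal 1 at 21 d (9.99) and animal 2 at 90 d (9.91). These animals also had high acute phase genes. The median was -0.24 without the first and -0.26 without the second. Zbtb16, a zinc finger gene induced by glucocorticoids, was 7.69 to 8.88 at 21 d (median 8.34) and 7.18 to 7.47 at 90 d (median 7.25). Its groups did not overlap, and its brightest probe set was just outside the threshold (difference -1.02 ± 0.17 SE, adjusted p = 0.0515); another probe set of the gene fell by 1.25 (adjusted p = 0.0141), and the remaining one differed by -0.20 (adjusted p = 0.516). Klf9 differed by -0.41 (adjusted p = 0.205) and Fkbp5, a cochaperone of the glucocorticoid receptor, by -0.47 (adjusted p = 0.454). In treated livers the Zbtb16 probe set that passed had a difference of 0.73 (adjusted p = 0.567).

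Among genes of detoxication, Sult5a1, a sulfotransferase, was 9.13 to 9.93 at 21 d and 8.37 to 9.05 at 90 d, a difference of -0.70 ± 0.13 (SE; adjusted p = 0.0763) without overlap, and -1.15 in treated livers (adjusted p = 0.0721). Mouse Sult1a1 differed by -0.01 ± 0.09 (SE; adjusted p = 0.985). Gstm2, a glutathione transferase, was 9.31 to 9.77 and 8.95 to 9.27 (difference -0.44 ± 0.09 SE, adjusted p = 0.0917), and 9 of 41 members of its glutathione and NRF2 list were past an unadjusted p of 0.05 (22.0%, against 10.3% of all genes), 7 of them lower. That count was 5 without animal 1 or without animal 3 at 90 d, and 4 with the Gapdh gap in the fit. Cdh1, E-cadherin of the bile duct and periportal liver, was 9.99 to 10.71 and 9.51 to 10.05, a difference of -0.61 ± 0.11 (SE; adjusted p = 0.0775) with a slight overlap, and differed by -0.54 in treated livers (adjusted p = 0.0595).

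In the lists for growth and immaturity (cell cycle, fetal liver and postnatal growth) no member passed. Of 42 cell cycle genes 0 passed, and 5 were past an unadjusted p of 0.05 (11.9%, against 10.3% of all genes). Mki67, a proliferation marker, was at 5.32 ± 0.27 (SD, n = 6) at 21 d and 5.2 ± 0.13 (SD, n = 6) at 90 d. Both means lay below the lowest median of a vehicle array, 5.53, so a change in this dim gene could be missed. Ccnd1, cyclin D1, differed by 0.45 ± 0.12 (SE; adjusted p = 0.268). The fetal liver genes Afp and Igf2 differed by 0.05 and -0.09 (adjusted p = 0.89 and 0.803). Afp was also dim, with means of 4.99 at 21 d and 5.04 at 90 d. Igf1, the circulating growth factor made by liver, was 13.26 to 13.43 at 21 d and 13.08 to 13.26 at 90 d (difference -0.17, adjusted p = 0.324). Of 31 p53 targets and 47 DNA repair genes 0 passed, and 1 and 2 were past an unadjusted p of 0.05, shares of 3.23% and 4.26% against 10.3% of all genes.

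**Figure D2:**
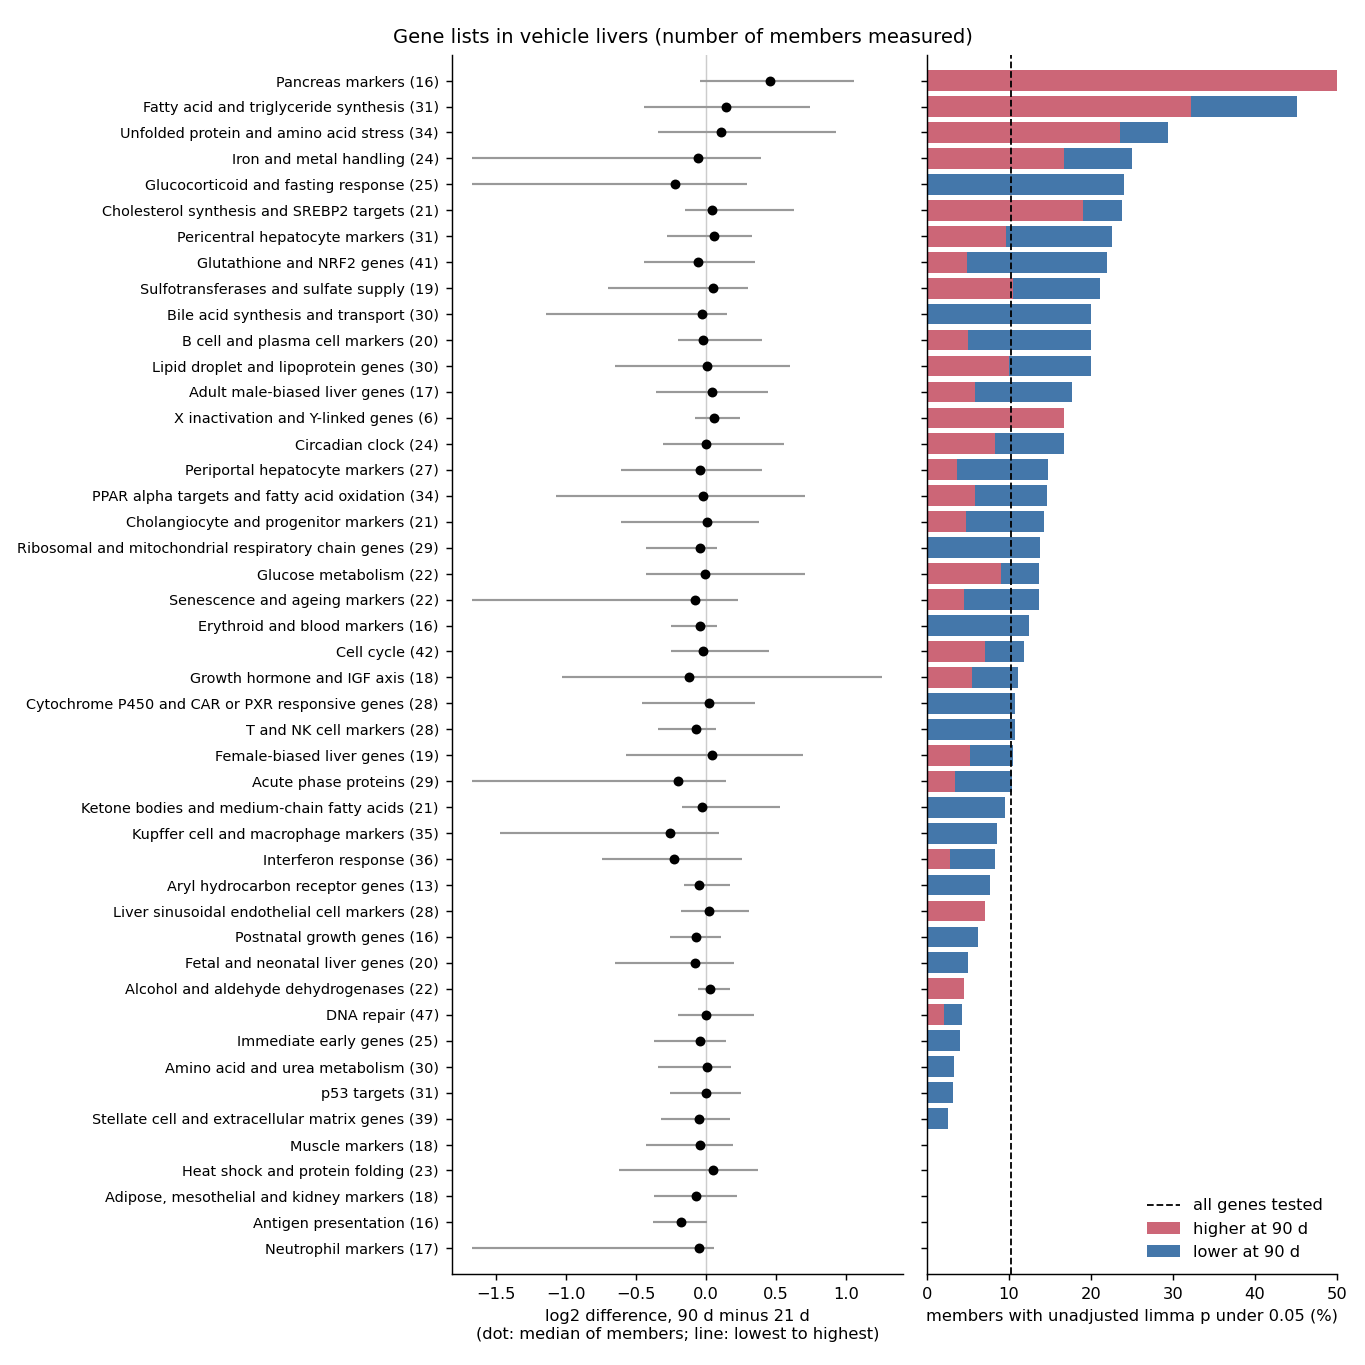
Left, the median (dot) and the range from lowest to highest (line) of the members' log2 differences, 90 d minus 21 d, for each of 46 gene lists with the number of members measured; right, the percent of members with an unadjusted limma p under 0.05, red for higher and blue for lower at 90 d, with the share over all genes as a dashed line. Pancreas markers (8 of 16, all higher) and fatty acid and triglyceride synthesis (14 of 31) extend furthest past the line at 10.3%, and no list has a median beyond 0.46 in size.

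The animals given 1-MIM-OH are other animals, collected at the same times, so the passing probe sets could be looked at again in them. Of the 20 probe sets, 17 had the same direction from 21 d to 90 d in treated livers, as did 48% of all 45037 probe sets. Over all probe sets, which share the same arrays, the differences in treated and in vehicle livers had a Pearson correlation of -0.0875. That correlation was 0.311 without the 5 arrays, all from treated animals, whose Gapdh gap exceeded 0.9. Only 1 treated array was then left at 21 d, so neither value settles how alike the differences were. With all 23 arrays, 34 of 45037 probe sets passed between 90 d and 21 d in treated livers (0.0755%). Among them were 5 of the 20: Cyp39a1, Tcf24, Nat8, the dimmer Mme probe set and the unnamed set 1443735_at, which was near the floor. Cyp39a1 averaged 7.63 at 21 d and 5.85 at 90 d in treated livers (difference -1.78 ± 0.19 SE, limma adjusted p = 0.000131). Tcf24 differed there by -1.90 ± 0.26 (SE; adjusted p = 0.00191) and Nat8 by 0.98 ± 0.13 (SE; adjusted p = 0.000717).

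The remaining 3 probe sets had a difference of the opposite sign in treated livers, those of Zbtb16 (0.73), Otud7b (0.03) and the unnamed set 1442025_a_at (0.61). Cdkn2c differed by -0.08 ± 0.15 (SE; adjusted p = 0.862) in treated livers, where all animals at both times lay above the vehicle animals of 90 d. For 0 probe sets did the difference over time itself differ between treated and vehicle livers at an adjusted p under 0.05 in limma (4320 at an unadjusted p under 0.05). Without the 5 arrays whose Gapdh gap exceeded 0.9, a single treated array was left at 21 d, 77 probe sets passed in treated livers and 6 for the difference of the time effects. In that setting Cdkn2c differed by -0.80 in treated livers, a value that rests on the 1 array left at 21 d. Cdkn2c was 9.09 in that array and 7.95 to 8.32 in the other treated arrays at 21 d. The same animal had the highest Lcn2 of the study, 13.83, so the value cannot be set beside the vehicle difference of -0.75. Again 17 of the 20 had the vehicle direction, against 55.3% of all probe sets, but 3 of the 20 passed: Nat8, Mme and the unnamed set 1416666_at. Cyp39a1 (-1.15, adjusted p = 0.185), Tcf24 (-1.29, adjusted p = 0.379) and 1443735_at (0.57, adjusted p = 0.143) did not pass there. Whether treated and vehicle animals of 1 time point were handled together is not in the labels, and its part was not tested.

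**Figure D3:**
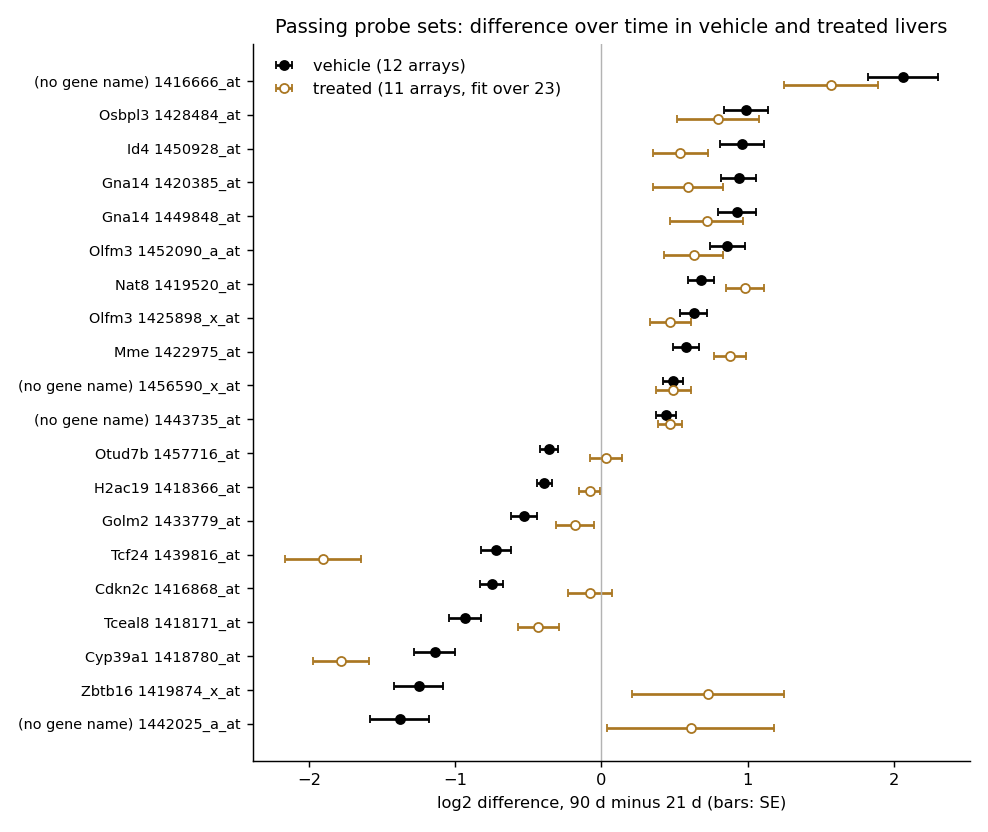
Log2 difference between 90 d and 21 d with its SE for the 20 probe sets that passed in vehicle livers, filled for vehicle and open for animals given 1-MIM-OH. The open points lie on the same side of 0 as the filled ones for 17 of 20, with Tcf24 at -0.72 and -1.90 and Zbtb16 at -1.25 and 0.73.

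Differences between animals of 1 group were large in a limited set of genes. The median SD over 6 animals was 0.128 at 21 d and 0.124 at 90 d, and the SD was the larger one at 21 d in 54.0% of genes. An SD above 1 was found for 50 genes at 21 d and 30 at 90 d, 16 of them in both groups. Among these 16 were the acute phase genes Saa1, Saa2, Orm2 and Lcn2, the neutrophil genes S100a8 and S100a9, and the muscle genes Acta1, Mb, Myh8 and Tnnc2. An absolute difference over 1 between the group means was reached by 12 genes, and 1 of them, Cyp39a1, passed. Lcn2, Marco and Saa1 had the largest differences in size, -1.67, -1.47 and -1.35, with adjusted p of 0.646, 0.5 and 0.578.

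Lcn2, which encodes the iron-siderophore-binding protein lipocalin 2 and is induced in hepatocytes by inflammatory cytokines, was 12.08, 7.28, 6.97, 9.71, 10.62 and 7.0 in animals 1 to 6 at 21 d. At 90 d it was 5.82, 11.09, 6.04, 7.48, 6.55 and 6.65. Animals 1, 4 and 5 at 21 d and animal 2 at 90 d were high, and the other 8 lay between 5.82 and 7.48. Saa2, a serum amyloid A gene, ran from 8.87 to 12.23 at 21 d and from 7.90 to 12.38 at 90 d, and Orm2, an orosomucoid gene, from 8.42 to 12.07 and from 8.16 to 11.91. Both were highest in animal 1 at 21 d and in animal 2 at 90 d.

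Of the 29 acute phase genes, 9 in each group had an SD above 0.5. The mean log2 level of the 29 genes was 11.46 to 12.49 at 21 d and 11.18 to 12.49 at 90 d, with 12.49 in animal 1 at 21 d and again in animal 2 at 90 d. Within the groups, animal 1 was highest for 14 of 29 members at 21 d and animal 2 for 25 of 29 at 90 d. Metallothioneins, small metal-binding proteins induced by glucocorticoids, zinc and cytokines, were high in animal 2 at 90 d: Mt1 was 13.25 there and 9.43 to 10.53 in the other 5, and Mt2 was 11.92 there and 8.11 to 9.40 in the others.

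Of 36 interferon response genes, 21 had an SD above 0.5 at 21 d and 4 at 90 d. Over all genes, 290 and 200 of 18193 had an SD above 0.5. Animal 1 at 21 d was the highest of its group for 31 of 36 members. Gbp6, an interferon-induced GTPase, was 10.96 in that animal and 7.78 to 8.87 in the other 5, and Cxcl9, a chemokine induced by interferon gamma, was 11.53 there and 7.37 to 8.99 in the others. Animal 2 at 90 d was the highest of its group for 22 of 36 members, with 8.68 for Gbp6. Antigen presentation genes were highest in the same animals, for 15 of 16 members in each group. Cd74, the invariant chain of MHC class II, was 10.70 in animal 1 at 21 d and 9.90 in animal 2 at 90 d, and 8.27 to 9.84 in the other 10.

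Kupffer cell and macrophage markers varied with them. Marco, a scavenger receptor of macrophages, was 11.12 in animal 1 at 21 d and 6.66 to 8.94 in the other 5. Clec4f, which marks Kupffer cells, was 10.87 in the same animal and 9.51 to 10.55 in the others, and 10.83 in animal 2 at 90 d against 9.47 to 10.00. The mean log2 level of the 35 markers was 7.95 to 9.26 at 21 d and 7.83 to 8.78 at 90 d. In these livers a larger number of cells of a type and more RNA per cell cannot be told apart.

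At the level of groups these lists stood lower at 90 d without any member passing. Of 36 interferon genes 34 had a negative difference (median -0.23), of 35 macrophage markers 32 (median -0.26), and of 29 acute phase genes 27 (median -0.20). Over all genes it was 10156 of 18193. Members of a list varied together within animals, so they are not separate counts. The shares past an unadjusted p of 0.05 were 8.33%, 8.57% and 10.3%, against 10.3% of all genes. Leaving out the 4 animals with high acute phase genes (animals 1, 4 and 5 at 21 d, animal 2 at 90 d), which was chosen after seeing the data, the medians were 0.09, 0.05 and -0.06. They were -0.03, -0.08 and -0.08 without animal 1 at 21 d alone, and 0.00, -0.06 and -0.05 with the Gapdh gap in the fit. Without the 4 animals 26 probe sets passed, 9 of them among the 20, and Cdkn2c, Tcf24 and Nat8 kept their call while the other 6 genes, Cyp39a1 and Tceal8 among them, did not. The differences stayed of similar size, at -1.20 for Cyp39a1 (adjusted p = 0.0533), -0.79 for Tceal8 (adjusted p = 0.0801) and 0.99 for Gna14 (adjusted p = 0.0857), and other probe sets of Gna14 (adjusted p = 0.0268) and Olfm3 (adjusted p = 0.04995) passed.

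**Figure D4:**
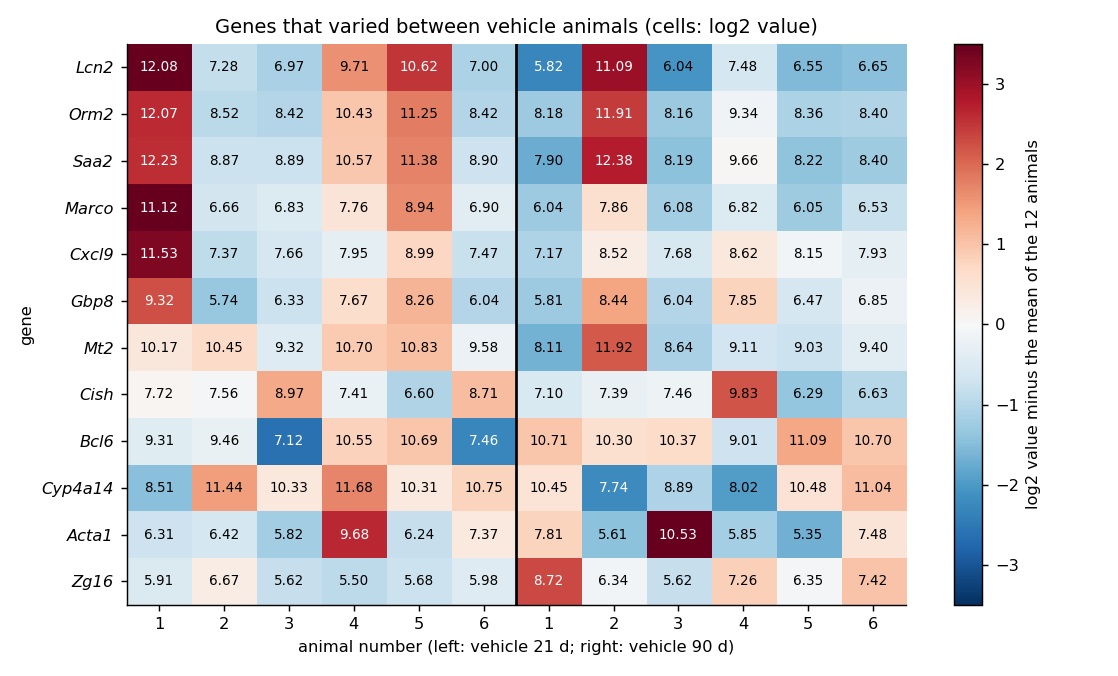
Log2 values of 12 genes in the 12 vehicle animals, coloured by the difference from the gene's mean over the 12 (red above, blue below). Lcn2, Orm2 and Saa2 are high in the same 4 animals (1, 4 and 5 at 21 d, 2 at 90 d), Marco and Cxcl9 highest in animal 1 at 21 d, Acta1 in animal 4 at 21 d (9.68) and animal 3 at 90 d (10.53), and Zg16 in animal 1 at 90 d (8.72).

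Among growth hormone signalling genes, Bcl6 and Cish set animals 3 and 6 at 21 d and animal 4 at 90 d apart. Both genes were named for a large SD. Growth hormone acts on liver in pulses, which through STAT5B induce Cish and repress Bcl6. Bcl6, a transcriptional repressor, was 9.31, 9.46, 7.12, 10.55, 10.69 and 7.46 in animals 1 to 6 at 21 d, and 10.71, 10.30, 10.37, 9.01, 11.09 and 10.70 at 90 d. Cish was 7.72, 7.56, 8.97, 7.41, 6.60 and 8.71 at 21 d, and 7.10, 7.39, 7.46, 9.83, 6.29 and 6.63 at 90 d. The animals with the lowest Bcl6 in their group, 3 and 6 at 21 d and 4 at 90 d, had the highest Cish. Socs2, also of the growth hormone list, was 11.66 in animal 6, 11.07 in animal 2 and 11.06 in animal 3 at 21 d. At 90 d it was highest in animal 4, at 9.94. No animal was the highest of its group for more than 5 of the 18 list members. The mean difference of Bcl6 was 1.26 ± 0.57 (SE; adjusted p = 0.521), and 0 of 18 genes of the growth hormone and IGF axis passed.

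Of 24 circadian genes, 7 at 21 d and 5 at 90 d had an SD above 0.5, and animal 4 at 21 d was the highest of its group for 13 of 24. Per2, a clock repressor, ran from 6.22 to 7.63 at 21 d and from 6.68 to 7.67 at 90 d (difference 0.56 ± 0.22 SE, adjusted p = 0.452). Pdk4, which restrains glucose oxidation in fasting, ran from 6.32 to 7.11 and from 6.15 to 8.46. Cyp26a1, which degrades retinoic acid, was 11.69 in animal 6 at 90 d and 7.52 to 9.43 in the other 5. The time of day of collection is not in the labels used here.

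Pancreas markers were the list with the highest median difference, 0.46, and 8 of 16 members were past an unadjusted p of 0.05 (50%), all of them higher at 90 d; none passed after adjustment. The mean log2 level of the 16 genes was 5.73 to 6.29 at 21 d and 5.72 to 7.17 at 90 d. Zg16, a protein of zymogen granules, was 5.5 to 6.67 at 21 d, and 8.72, 6.34, 5.62, 7.26, 6.35 and 7.42 in animals 1 to 6 at 90 d. Cpb1, carboxypeptidase B1, was 4.42 to 5.70 at 21 d and 7.29, 6.24, 4.26, 6.51, 5.13 and 5.51 at 90 d. Animal 1 was highest for 13 of 16 members at 90 d and animal 2 for 14 of 16 at 21 d, whereas animal 3 at 90 d was as low as any 21 d animal. In treated livers the median difference of the list was 0.05.

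With the 3 vehicle animals of highest pancreas markers left out (animals 1, 4 and 6 at 90 d), chosen after seeing the data, 0 probe sets passed in limma (3093 at an unadjusted p under 0.05), with 3 animals left at 90 d. All 20 probe sets kept their direction, which could not change because their groups did not overlap. The differences were 2.02 for 1416666_at, -1.20 for Cyp39a1, -0.76 for Cdkn2c and 0.95 for Gna14, against 2.06, -1.14, -0.75 and 0.93 with all animals. The part of pancreas tissue in the differences over time was not tested beyond this. Muscle markers were high in other animals. Acta1, skeletal muscle actin, was 9.68 in animal 4 at 21 d and 5.82 to 7.37 in the other 5, and 10.53 in animal 3 at 90 d and 5.35 to 7.81 in the other 5. The muscle list had a median difference of -0.04. Stellate cell and matrix genes were highest in animal 2 at 21 d for 27 of 39 members and in animal 3 at 90 d for 23 of 39, and their mean log2 level was 7.40 to 7.94 at 21 d and 7.31 to 7.81 at 90 d.

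The number of genes more than 2-fold from the mean of the other 5 animals was 192 for animal 1 at 21 d and 92 for animal 2 at 90 d, and 25 to 73 for the other 10. The correlation with the mean of the other 5 was lowest for animal 1 at 21 d, at 0.995, and at most 0.998.

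**Figure D5:**
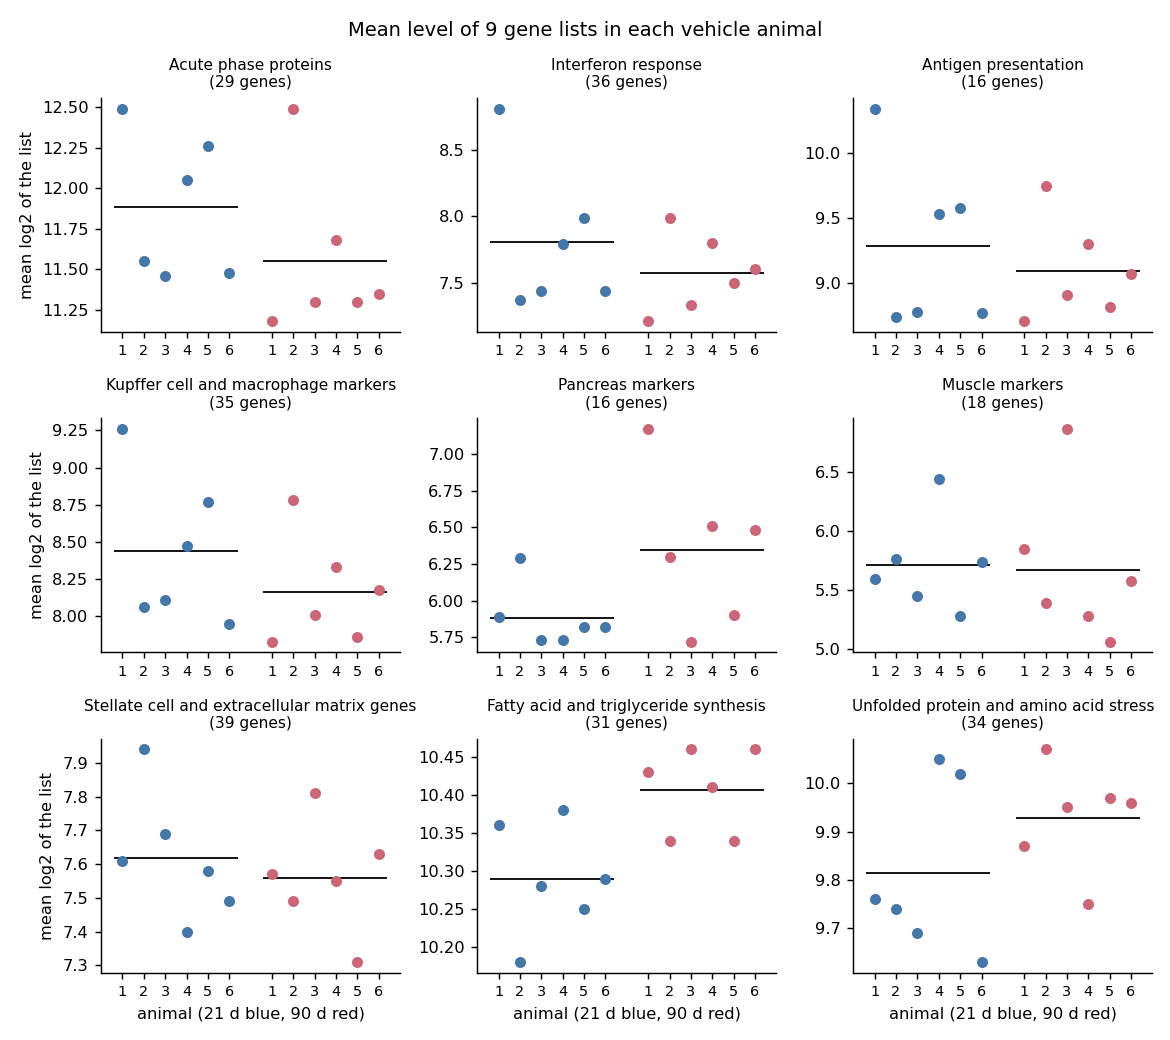
Mean log2 level of 9 gene lists in each vehicle animal (blue, 21 d; red, 90 d; line, group mean). Immune and acute phase lists peak in animal 1 at 21 d and animal 2 at 90 d (12.49 for the 29 acute phase genes in both), pancreas markers in animal 1 at 90 d (7.17), and muscle markers in animal 3 at 90 d (6.86).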

How the data were processed

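The deposited log2 values are RMA expression values with 2 decimals; Partek and RMA are named in the submitters' processing notes, without version or settings. That the base is log2 follows from the range of the values, 2.23 to 15.41. The 64 control probe sets were left out of the tests. Symbols came from the platform annotation: of 45037 probe sets, 34945 had 1 gene, 932 several and 9160 none; 34741 matched RefSeq. A gene is represented by its probe set with the highest mean over the 23 arrays.

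The 12 vehicle arrays were fitted by limma 3.58.1 (lmFit, eBayes; R 4.3.3), with Benjamini-Hochberg adjustment over the 45037 probe sets and a threshold of 0.05. The treated comparison used 4 group means over 23 arrays. Exact permutation tests used scipy 1.17.1 in Python 3.11.15. On simulated data with 200 changed probe sets this fit recovered 85.1% of 1.5-fold and 97.0% of 2-fold changes. The simulated noise was independent between probe sets, whereas in the real animals whole gene lists varied together. These shares therefore check the fit and do not give its power in the real data. Each array is 1 animal; the spread behind a p-value is that between animals, and the number of arrays limits the precision.

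The members and lists were chosen with earlier results of these data known. Named genes are those passing (up to 15 each way by size, and the 5 smallest p each way), for each list its passing members (at most 3) or, with none, the 1 that differed most, the 10 genes with the largest SD in each group among those with a mean of at least 7, and 12 genes named whatever the result. The genes Fasn, Srebf1, Thrsp, Acly, Acacb, Insig1, Insig2, Lss, Hyou1, Hspa5, Manf, Klf9, Fkbp5, Zbtb16, Cyp27a1, Cyp8b1, Cyp7a1, Abcb11, Cpb1, Acadm, Clec4f, Cdkn2a, S100a8, S100a9, Tnnc2 and the genes with an SD above 1 in both groups were named after values were seen, as were the passing probe sets that do not represent their gene. Alternatives covered the samples in the fit, a replicate block, a filter on low values, the variance model, array weights, quantile normalization, the Gapdh difference, the choice of probe set and leaving out arrays.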

Additional observations from a re-analysis of the deposited data

Results flagged for a closer look

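In 16 of 184 sets of 6 vehicle animals (8.70%; 92 genes, 2 groups each), the gap between the highest or lowest animal and the nearest other one exceeded Dixon's critical value as a share of the range. Chance gives about 1 in 20 for genes not chosen by their spread, but some of these genes, among them Lcn2, Orm2, Mt1, Mt2 and Cish, were named for a large SD, so the count is a description and is not set against that rate. Animal 2 at 90 d was the highest for Lcn2 (11.09; next 7.48), Mt1 (13.25; next 10.53), Mt2 (11.92; next 9.40), Orm2 (11.91; next 9.34) and the growth-arrest gene Btg2 (7.96; next 7.56). Animal 1 at 21 d was the highest for Gbp6 (10.96; next 8.87) and for the immediate early gene Egr1 (10.72; next 8.85), and the lowest for Tcf24 (9.10; next 9.47). Animal 4 at 90 d was the highest for Cish (9.83; next 7.46) and Olfm3 (7.99; next 7.68), and the lowest for Hyou1 (9.87; next 10.20). Animal 2 at 21 d was the highest for the pancreatic lipase gene Cel (5.62; next 5.16) and the lowest for the Y-linked gene Eif2s3y (9.0; next 9.31). Animal 3 at 90 d was the highest for Cdkn1a (7.27; next 6.72), animal 6 at 90 d the highest for Fkbp5 (8.79; next 8.18), and animal 5 at 21 d the lowest for the muscle gene Myh4 (3.52; next 4.46).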

How the results depend on the processing

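The 20 passing probe sets (9 genes) became 3 (2) with all 23 arrays in the fit, 42 (22) with a mean of at least 6, 41 (22) with an intensity trend and robust eBayes, 8 (4) with the Gapdh covariate, 0 (0) without the 3 animals with high pancreas markers, and 9 to 43 (4 to 22) with 1 array left out; averaging a gene's probe sets gave 18 genes. Array weights gave 27 (12) and quantile normalization 21 (9). With the replicate number as a block, 0 (0) passed (3583 at an unadjusted p under 0.05); the numbers do not pair the animals, since correlations of deviations ran from -0.35 to 0.22 and 0 of 6 animals correlated best with their own number. Cdkn2c, Cyp39a1, Tceal8 and Tcf24 passed in all 12 fits without 1 animal. With 1 array left out, the Gapdh difference was 0.12 to 0.20, with an exact permutation p under 0.05 only without animal 2 at 21 d, and the beta-actin difference 0.13 to 0.21, with an exact permutation p above 0.05 in 6 of 12 fits. Without the 5 arrays with a Gapdh difference over 0.9, where the lone treated array left at 21 d takes its spread from the other groups, 77 probe sets passed in treated livers and 6 for the difference of the time effects; with a mean of at least 6, 19 passed in treated livers. Of 1772 refits of 81 named genes, 1675 kept direction and call, 60 lost and 14 gained a call, and 23 turned sign, all of genes that did not pass. With the Gapdh covariate these were Acadm (0.01), Afp (-0.01), Cd74 (0.03), Clec4f (0.01), Igf2 (0.03), Sult1a1 (0.02) and Xist (-0.07). Without the 4 animals with high acute phase genes they were Cd74 (0.29), Clec4f (0.07), Egr1 (0.22), Kap (0.17) and Xist (-0.08), and without the 3 with high pancreas markers Cdkn1a (0.05) and Cyp7a1 (0.15). With 1 array left out, where the turned values were 0.01 for Acadm, 0.15 and 0.30 for Cyp7a1, 0.01 to 0.06 (0.02 once) for Sult1a1 and -0.02 to -0.03 for Xist, the ranges were Acadm (-0.05 to 0.01), Cyp7a1 (-0.37 to 0.30), Sult1a1 (-0.06 to 0.06) and Xist (-0.03 to 0.07). Except for the settings with fewer animals, the cause was not tested.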
